A study of Oryza sativa with 21 samples.

Results

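The genes described here are 5 pathogenesis-related (PR) genes of rice, PR1a (OS07G0129200), PR1b (OS01G0382000), PR10b (OS12G0555000), a further gene of the PR10 cluster (OS12G0555200) and PBZ1 (OS12G0555500). They were chosen by identifier, with earlier results of these data known, from a table of 91080 gene identifiers. Counts of called members are therefore not an independent test against the share over all genes. All 5 had enough counts to be tested among 21044 genes. The identifiers place PR1a on chromosome 7, PR1b on chromosome 1 and the 3 PR10 genes close together on chromosome 12. The symbols are those under which the 5 identifiers were chosen. The gene table used here pairs none of the identifiers with a symbol or description, and symbols of the PR10 cluster differ between sources.

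PR genes were named for the proteins that plants make when a pathogen attacks. PR1 proteins are small secreted proteins, and their transcripts are widely used as readouts of salicylic acid signalling, which in rice runs through regulators such as NH1 and WRKY45. PR10 proteins are small and stay inside the cell, and PBZ1 took its name from probenazole, a compound that protects rice against blast and induces the gene.

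RNA came from the second leaf from the top of field-grown rice at heading, collected in the morning, in 7 lines with 3 libraries each. OE-2, OE-3 and OE-4, called the OE lines here, overexpressed NRP1, a gene that the study names as a negative regulator of photosynthesis. C-13, C-14 and C-16, called the CRISPR lines, were knockouts of NRP1 edited with CRISPR/Cas9, and the wild type (WT) carried neither change. The labels do not name the rice cultivar, the promoter of the transgene or the edits, and they do not say whether the 3 libraries of a line came from separate plants. In the main analysis the p-values against WT, and those among lines of a genotype, therefore measure the spread between these libraries, which may be technical. Those of OE lines against CRISPR lines rest on the spread between lines.

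Library totals ran from 13788243 to 19032786 counts, so 3 counts, the limit that a count of 0 allows, corresponded to 0.148 to 0.213 CPM. CPM are counts divided by the scaled size of the library, and they are not corrected for gene length and so are compared between samples and not between genes. The transcript of the targeted locus, taken from general knowledge to be OS07G0471900, was 135-fold higher in the OE lines than in WT, at 273 to 398 CPM in OE libraries, 2.01 to 3.87 CPM in CRISPR libraries and 1.93 to 3.00 CPM in WT libraries. A transcript level does not check an edit in a coding sequence. The summed level of 5 leaf marker genes was 47575 to 67070 CPM in OE libraries, 69327 to 78743 CPM in CRISPR libraries and 56054 to 71689 CPM in WT libraries. The gene listed as RCA made up most of it, at 40185 to 57572 CPM in OE, 58175 to 65396 CPM in CRISPR and 47858 to 61458 CPM in WT libraries. Against WT 1 of the 5 was lower in OE lines and 3 were higher in CRISPR lines (edgeR). Of 6 root and seed markers, 2 had no count in any library (RCc3 and Glb), and their sum was 27.8 to 37.6 CPM in OE, 29.9 to 40.3 CPM in CRISPR and 23.0 to 28.6 CPM in WT libraries. Most of that sum was the silicon transporter gene listed as Lsi1, at 21.8 to 33.9 CPM in OE, 24.1 to 34.8 CPM in CRISPR and 17.8 to 22.4 CPM in WT libraries (CRISPR lines against WT, edgeR adjusted p = 0.0109). Of the 3 root and seed markers tested, Lsi1 was the 1 called in CRISPR lines against WT and edgeR called 0 in OE lines. In the OE lines 2 had an unadjusted p under 0.05, beside 4489 of 21044 tested genes, and DESeq2 called 1. The part of these markers in the results below was not tested. In whole leaves, fewer cells of a type and less RNA per cell cannot be told apart.

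The 3 PR10 genes were called lower in the CRISPR lines against WT, and none of the 5 genes was called in the OE lines against WT. PR10b fell to 0.348-fold, the PR10 cluster member to 0.336-fold and PBZ1 to 0.688-fold of the WT level. The PR1 genes were near the limit of detection in most libraries and were not called in any comparison. Among all tested genes, 6.37% were called lower in the CRISPR lines against WT and 5.34% higher. In the OE lines against WT 4.67% were called either way, so the absence of calls among 5 genes says little. The PR10 cluster member had a log2 fold change of -0.79 there (edgeR unadjusted p under 0.05). PBZ1 was not called between OE and CRISPR lines (edgeR adjusted p = 0.158). A fall confined to the CRISPR lines is therefore not shown for the PR10 cluster member or for PBZ1. Calls rest on the quasi-likelihood test of edgeR across all tested genes, with an adjusted p under 0.05 (Benjamini-Hochberg).

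**Figure D1:**
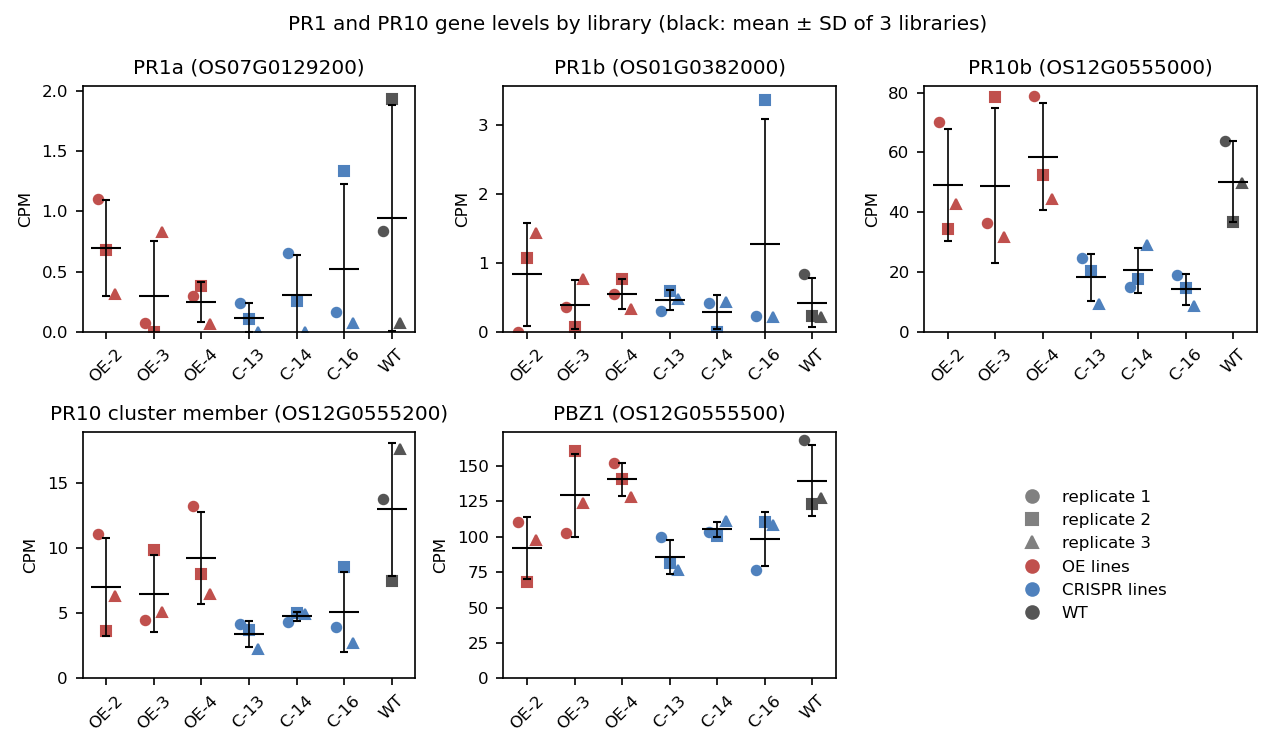
Level of each gene in CPM (y axes, from 0) in the 3 libraries of each line (x axes), coloured by genotype, with the replicate number as the symbol. Black bars are the mean ± SD of 3 libraries, cut off at 0, and the 9 CRISPR libraries of PR10b lie between 8.78 and 29.0 CPM, below every OE and WT library.

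PR10b was at 70.3, 34.4 and 42.9 CPM in the 3 libraries of OE-2, at 36.5, 78.7 and 31.6 CPM in OE-3 and at 78.7, 52.6 and 44.5 CPM in OE-4. In the CRISPR lines it was at 24.7, 20.5 and 9.39 CPM in C-13, at 15.1, 17.6 and 29.0 CPM in C-14 and at 19, 14.8 and 8.78 CPM in C-16. The WT libraries held 63.8, 36.8 and 49.9 CPM. Every CRISPR library thus lay below every WT and every OE library, whereas OE and WT libraries overlapped throughout. All CRISPR libraries lay below all WT libraries in 4.61% of tested genes, and all OE libraries above all CRISPR libraries in 3.16%.

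Line means of PR10b were 49.2 ± 19 CPM in OE-2, 48.9 ± 26 CPM in OE-3, 58.6 ± 18 CPM in OE-4, 18.2 ± 7.9 CPM in C-13, 20.6 ± 7.4 CPM in C-14, 14.2 ± 5.1 CPM in C-16 and 50.2 ± 14 CPM in WT (SD, n = 3 libraries each). Within the OE lines with WT, and within the CRISPR lines, neighbouring means differed by less than these SDs, and the largest step in the order was that between OE-3 and C-14. The log2 fold change of the CRISPR lines against WT was -1.52 (SE 0.30, edgeR adjusted p = 0.00335). That of the OE lines was 0.05 (95% interval -0.60 to 0.71, edgeR adjusted p = 0.949). Without each WT library in turn the gene was still called in the CRISPR lines, where the estimate over the 30 alternatives run was from -1.73 to -1.31.

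The PR10 cluster member OS12G0555200 had 11.1, 3.66 and 6.29 CPM in OE-2, 4.47, 9.87 and 5.13 CPM in OE-3 and 13.2, 8.03 and 6.51 CPM in OE-4. C-13 held 4.17, 3.73 and 2.29 CPM, C-14 held 4.36, 5.0 and 4.95 CPM and C-16 held 3.98, 8.55 and 2.72 CPM, against 13.8, 7.51 and 17.6 CPM in WT. The CRISPR libraries were low apart from C-16 replicate 2, which stood above the lowest WT library, so the groups overlapped. The OE libraries spanned the range between them and overlapped both.

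Its line means were 7.0 ± 3.8 CPM in OE-2, 6.49 ± 2.9 CPM in OE-3, 9.26 ± 3.5 CPM in OE-4, 3.4 ± 0.99 CPM in C-13, 4.77 ± 0.36 CPM in C-14, 5.08 ± 3.1 CPM in C-16 and 13 ± 5.1 CPM in WT (SD, n = 3 libraries each). WT had the highest mean and the CRISPR lines the lowest, and among neighbours in this order C-14 and C-13 were the 1 pair that differed by more than the larger of their SDs. In the CRISPR lines the log2 fold change against WT was -1.57 (SE 0.33, edgeR adjusted p = 0.00476). The OE lines had a log2 fold change of -0.79 (95% interval -1.47 to -0.11), which was not called (edgeR adjusted p = 0.167).

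PBZ1 was at 110.2, 68.0 and 97.9 CPM in OE-2, at 103, 161 and 124 CPM in OE-3 and at 152, 141 and 128 CPM in OE-4. C-13 held 99.6, 81.7 and 76.5 CPM, C-14 held 103, 101 and 111 CPM and C-16 held 76.4, 111 and 108 CPM, against 169, 123 and 128 CPM in WT. All 9 CRISPR libraries lay below the 3 WT libraries, as in 4.61% of tested genes. The OE libraries ranged more widely, OE-2 replicate 2 lying below every CRISPR library and OE-3 and OE-4 overlapping WT.

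Line means of PBZ1 were 92.0 ± 22 CPM in OE-2, 129 ± 29 CPM in OE-3, 141 ± 12 CPM in OE-4, 85.9 ± 12 CPM in C-13, 105 ± 5.3 CPM in C-14, 98.5 ± 19 CPM in C-16 and 139.7 ± 25 CPM in WT (SD, n = 3 libraries each). Each pair of neighbours in the order of these means differed by less than the larger SD of the pair. The log2 fold change of the CRISPR lines against WT was -0.54 (SE 0.15, edgeR adjusted p = 0.0224). That call ended without WT replicate 1 (log2 fold change -0.38, edgeR adjusted p = 0.182) and without line C-13 (-0.46, edgeR adjusted p = 0.0856). In the OE lines the log2 fold change was -0.24 (95% interval -0.55 to 0.07, edgeR adjusted p = 0.375).

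**Figure D2:**
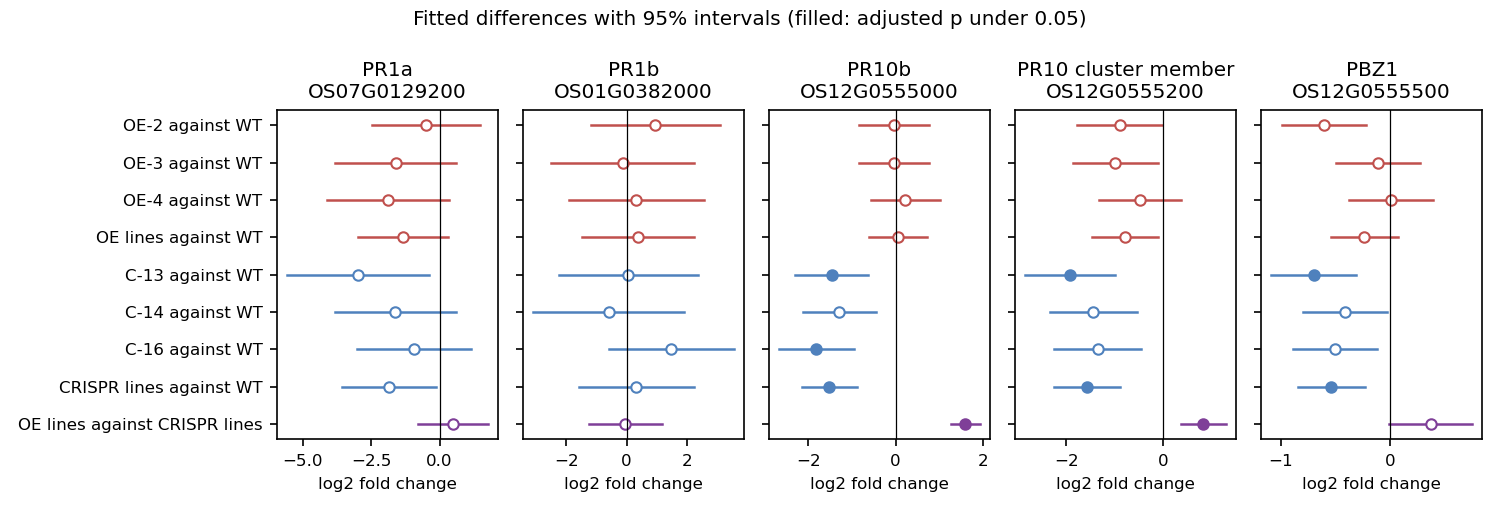
Log2 fold change (x axes) of each gene in 9 comparisons (rows), with points for the estimate and lines for the 95% interval. Filled points have an adjusted p under 0.05, which is the case for the 3 PR10 genes in the CRISPR lines against WT and for none of the genes in the OE lines against WT.

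Line by line, C-13 had 3 members called lower against a background of 3.7% of tested genes, C-16 had 1 against 3.29% and C-14 had 0 against 1.37%. In C-14, 3 members had an unadjusted p under 0.05, beside 4273 of 21044 tested genes, and DESeq2 called 1. PR10b had log2 fold changes of -1.46 for C-13 (edgeR adjusted p = 0.0355), -1.29 for C-14 (0.0777) and -1.81 for C-16 (edgeR adjusted p = 0.014). For the PR10 cluster member the values were -1.93 for C-13 (edgeR adjusted p = 0.015), -1.44 for C-14 (0.0711) and -1.35 for C-16 (0.0655). PBZ1 had -0.70 for C-13 (edgeR adjusted p = 0.0308), -0.41 for C-14 (0.216) and -0.51 for C-16 (0.103). All 9 estimates were negative, but the 3 comparisons share the WT libraries. Without WT replicate 1 no member was called in C-13 or C-16, and without C-13 replicate 3 none was called in C-13. Leaving out C-16 replicate 3 likewise ended the call in C-16 (PR10b log2 fold change -1.57, edgeR adjusted p = 0.0793).

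The 3 CRISPR lines were not found to differ from each other in any of the 5 genes: edgeR called 0 members, DESeq2 also called 0, and 0 had an unadjusted p under 0.05, against 0.442% of all tested genes called by edgeR. The lowest edgeR adjusted p was 0.903, for PR1b. The widest log2 spread between CRISPR lines among the PR10 genes was 0.57, in the cluster member. The OE lines likewise had 0 members called different by edgeR, against 9.82% of tested genes. PBZ1 was the member nearest to the threshold, with a log2 spread of 0.61 between OE-2 and OE-4 (edgeR adjusted p = 0.0728). It was the 1 member with an unadjusted p under 0.05 there, and DESeq2 called 1 member.

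In the OE lines against WT, edgeR called 0 of the 5 members and DESeq2 called 0, against 4.67% of all tested genes called by edgeR, 1.48% higher and 3.19% lower. The cluster member was the 1 member with an unadjusted p under 0.05, beside 4489 of 21044 tested genes. Each OE line alone also had 0 members called by edgeR. The background for single lines was 2.04% for OE-2, 18.9% for OE-3 and 0.58% for OE-4. Members with an unadjusted p under 0.05 numbered 2, 1 and 0 in that order of lines. Over all 21044 tested genes the numbers were 3646, 7057 and 1426. DESeq2 called 1 member for OE-2, 0 for OE-3 and 0 for OE-4. The closest to a call was PBZ1 in OE-2, whose log2 fold change was -0.60 (SE 0.18, edgeR adjusted p = 0.0931).

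Set directly against each other, with counts summed per line and each line as 1 replicate, OE lines had higher PR10b than CRISPR lines, by 3.03-fold (log2 difference 1.60, SE 0.14, edgeR adjusted p = 0.000868). The cluster member was 1.79-fold higher in OE lines (log2 difference 0.84, SE 0.20, edgeR adjusted p = 0.0283). PBZ1 was 1.29-fold the CRISPR level in OE lines (95% interval of the log2 difference -0.01 to 0.75, edgeR adjusted p = 0.158) and was called only where single libraries were the replicates or OE-2 was left out. Among all 22553 genes tested in this comparison, 17.4% were called, 9.71% higher in OE lines and 7.65% lower. The call for the cluster member ended without any 1 of the 3 CRISPR lines (edgeR adjusted p = 0.0903 without C-13, 0.0686 without C-14 and 0.0623 without C-16). It also ended without OE-2 replicate 1, OE-3 replicate 2 or C-16 replicate 3, while PR10b was called under every alternative run.

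The PR10 genes were also set against each other within libraries. The ratio of PR10b counts to PBZ1 counts in the same library does not depend on how libraries are scaled. It was 0.435 (range 0.254 to 0.638) over the 9 OE libraries, 0.185 (0.081 to 0.261) over the 9 CRISPR libraries and 0.356 (0.299 to 0.391) over the 3 WT libraries. CRISPR libraries all lay below WT, and the OE and CRISPR ranges met only at OE-3 replicate 3. By line the mean ratio was 0.527 for OE-2, 0.366 for OE-3, 0.412 for OE-4, 0.207 for C-13, 0.194 for C-14 and 0.154 for C-16. Over line means of the log2 ratio, OE lines were 2.44-fold above CRISPR lines (exact two-sided permutation test, p = 0.1, the smallest that 3 lines against 3 allow).

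For the cluster member the ratio to PBZ1 averaged 0.0622 (range 0.0413 to 0.1) in OE libraries, 0.0454 (0.0251 to 0.0774) in CRISPR libraries and 0.0937 (0.0611 to 0.138) in WT libraries. These ranges overlapped. By line the mean ratio was 0.0729 for OE-2, 0.0487 for OE-3, 0.0649 for OE-4, 0.0392 for C-13, 0.0454 for C-14 and 0.0515 for C-16, so that C-16 lay above OE-3. Over line means of the log2 ratio, in which OE-3 lay above C-16, OE lines were 1.38-fold above CRISPR lines (exact two-sided permutation test, p = 0.1, again the smallest possible).

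**Figure D3:**
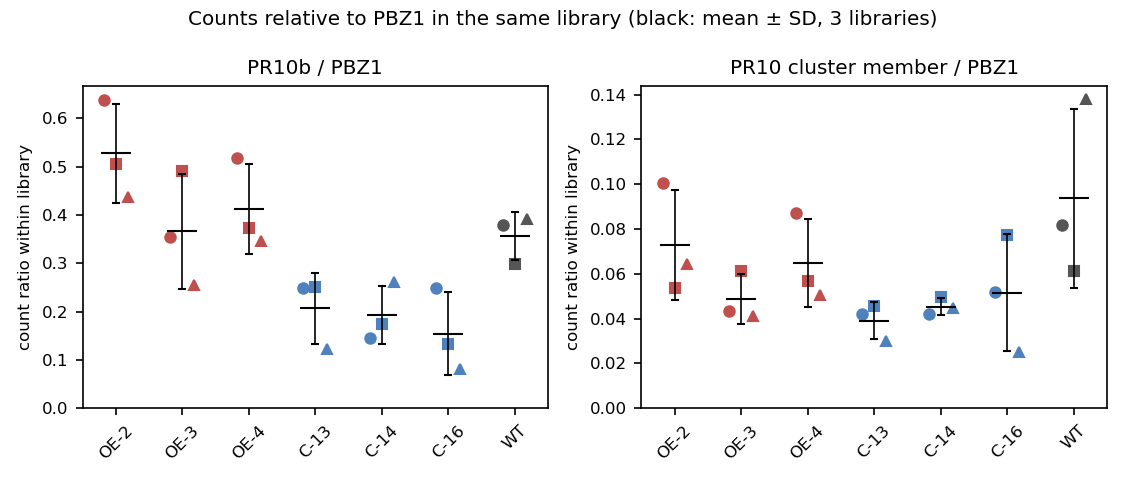
Counts of PR10b (left) and of the PR10 cluster member (right) divided by the PBZ1 count of the same library (y axes), by line (x axes), with points for libraries and black bars for the mean ± SD of 3 libraries. The PR10b ratio is between 0.081 and 0.261 in CRISPR libraries and between 0.299 and 0.391 in WT libraries.

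The library with the highest PR10b was also the one with the highest PBZ1 in 6 of 7 lines, and all 3 PR10 genes peaked in the same library in 4 of 7 lines. OE-3 shows the size of this spread: replicate 2 held 78.7 CPM of PR10b and 161 CPM of PBZ1, against 36.5 and 103 CPM in replicate 1. The PR10b level of the highest library of a line was 1.74 to 2.63 times that of the lowest, and that of PBZ1 was 1.1 to 1.62 times.

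PR1a was found in few reads. The 3 libraries of OE-2 held 16, 12 and 5 counts, OE-3 held 1, 0 and 14, and OE-4 held 6, 7 and 1. C-13 held 4, 2 and 0 counts, C-14 held 11, 4 and 0, and C-16 held 3, 19 and 1, against 16, 34 and 1 in WT. WT replicate 3 stood with the lowest libraries and WT replicate 2 was the highest of all, so that the WT libraries alone spanned 0.0697 to 1.93 CPM and the groups overlapped.

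Line means of PR1a were 0.696 CPM in OE-2, 0.299 in OE-3, 0.247 in OE-4, 0.117 in C-13, 0.306 in C-14, 0.523 in C-16 and 0.945 in WT. Neighbours in this order differed by less than the spread of their libraries. The log2 fold change was -1.33 in OE lines (95% interval -2.97 to 0.31, edgeR adjusted p = 0.342) and -1.85 in CRISPR lines (95% interval -3.57 to -0.12, edgeR adjusted p = 0.154), both against WT. Between OE and CRISPR lines the log2 difference was 0.49 (95% interval -0.78 to 1.77, edgeR adjusted p = 0.575). The CRISPR interval leaves out 0, with an unadjusted p of 0.0375, but no difference passed the adjusted threshold, and intervals this wide leave large changes possible.

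PR1b was equally sparse, with 0, 19 and 23 counts in OE-2, 5, 1 and 13 in OE-3 and 11, 14 and 5 in OE-4. In C-13 there were 5, 11 and 8 counts, in C-14 7, 0 and 7 and in C-16 4, 48 and 3, against 16, 4 and 3 in WT. C-16 replicate 2 stood alone at 3.37 CPM, where the other CRISPR libraries reached at most 0.595 CPM. The same library was also the highest CRISPR library for PR1a, at 1.33 CPM, and for the cluster member, but not for PR10b. Without it the log2 fold change of PR1b in CRISPR lines against WT was -0.51, against 0.31 with it (edgeR adjusted p = 0.722 without and 0.862 with).

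Line means of PR1b were 0.834 CPM in OE-2, 0.395 in OE-3, 0.543 in OE-4, 0.456 in C-13, 0.286 in C-14, 1.27 in C-16 and 0.423 in WT. Neighbours in this order did not differ beyond the spread of their libraries. The log2 fold change against WT was 0.38 in OE lines (95% interval -1.48 to 2.23, edgeR adjusted p = 0.853). The highest library of a line was the same for PR1a and PR1b in 3 of 7 lines.

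The identifier numbered next after PR1a, OS07G0129300, gave a different picture. It stands in the list of other PR genes as a PR1-type gene, a reading from general knowledge that no file used here records. It was at 24.5, 37.2 and 37.6 CPM in OE-2, at 11.8, 10.2 and 6.61 CPM in OE-3 and at 5.73, 5.75 and 15.4 CPM in OE-4. C-13 held 0.605, 0.649 and 0.176 CPM, C-14 held 0.418, 0.13 and 0.251 CPM and C-16 held 0, 1.12 and 0.209 CPM, against 21.2, 5.97 and 0.697 CPM in WT. Every OE library lay above every CRISPR library, as in 3.16% of tested genes. WT spanned both, its replicate 3 lying below the highest CRISPR library.

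OS07G0129300 was called lower in the CRISPR lines against WT, where the log2 fold change was -4.62 (SE 0.64, edgeR adjusted p = 0.000199), and in each CRISPR line alone. It was 44.8-fold higher in OE than in CRISPR lines (edgeR adjusted p = 0.00238). In the OE lines against WT the log2 fold change was 0.57 (edgeR adjusted p = 0.563), and 2.03 without WT replicate 1 (edgeR adjusted p = 0.0419). Without any 1 WT library it was still called lower in the CRISPR lines, and its estimates over the 30 alternatives run were from -5.31 to -3.16. The sources used here do not say how reads shared by similar PR1 genes were counted, and the split of counts between PR1a and OS07G0129300 is uncertain.

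**Figure D4:**
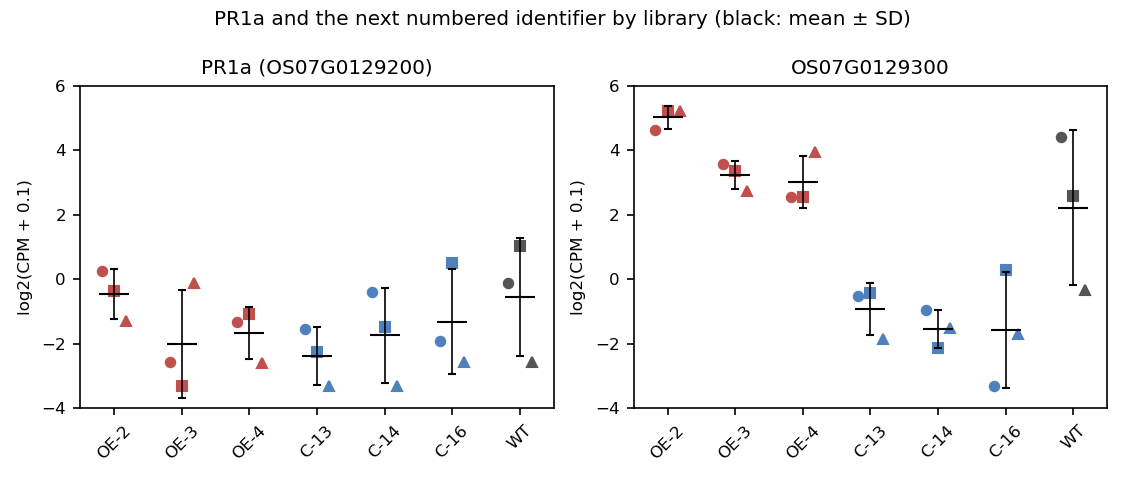
Levels of PR1a (left) and of OS07G0129300 (right) as log2(CPM + 0.1) on the y axes, by line, with points for libraries and black bars for the mean ± SD of 3 libraries. The 9 OE libraries of OS07G0129300 are at 5.73 to 37.6 CPM and the 9 CRISPR libraries at 0 to 1.12 CPM, while PR1a overlaps between all lines.

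Neighbours of the members were examined by identifier number. Around the PR10 cluster 14 of 19 identifiers were tested, 11 of them not members, and 6 of the 14 were called lower in the CRISPR lines against WT and 2 higher, the 3 members included, beside 6.37% lower and 5.34% higher over all tested genes. In the OE lines against WT edgeR and DESeq2 called 0 of the 14. An unadjusted p under 0.05 was found for 5 of the 14, beside 4489 of 21044 tested genes. Over all tested genes edgeR called 4.67% there. OS12G0555300, which lies between the cluster member and PBZ1 in number, was at 1.06 to 5.14 CPM in OE libraries, 0.488 to 1.87 CPM in CRISPR libraries and 2.16 to 6.27 CPM in WT libraries. Its CRISPR libraries lay below all WT libraries, as in 4.61% of tested genes (log2 fold change -2.07, SE 0.37, edgeR adjusted p = 0.00189). OS12G0556500 was at 12.9 to 31.4 CPM in OE libraries, 2.13 to 8.78 CPM in CRISPR libraries and 12.9 to 33.6 CPM in WT libraries (log2 fold change of CRISPR lines against WT -2.22, SE 0.29, edgeR adjusted p = 9.52e-05). OS12G0556200 was the third neighbour called lower (log2 fold change -1.30, edgeR adjusted p = 0.0139), and without WT replicate 1 it was at -0.44 (edgeR adjusted p = 0.402). The 2 called higher were OS12G0554100 (1.32, edgeR adjusted p = 0.00868), which was not called without WT replicate 2 (0.0538), and OS12G0556400 (0.60, edgeR adjusted p = 0.0151), which was at 0.39 without WT replicate 3 (0.0907). The calls for OS12G0556200 and OS12G0556400 also ended without line C-13 and with counts summed per line. Around PR1a 9 of 32 identifiers were tested and 2 were called lower in the CRISPR lines, OS07G0129300 and OS07G0124100, the second of which was not called without WT replicate 1 (log2 fold change -0.92, against -1.32 with it, edgeR adjusted p = 0.065). Around PR1b 3 of 8 were tested and 0 were called by edgeR or DESeq2 in OE or CRISPR lines against WT. In each comparison 1 had an unadjusted p under 0.05, beside 4489 of 21044 tested genes in OE lines and 5764 in CRISPR lines.

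**Figure D5:**
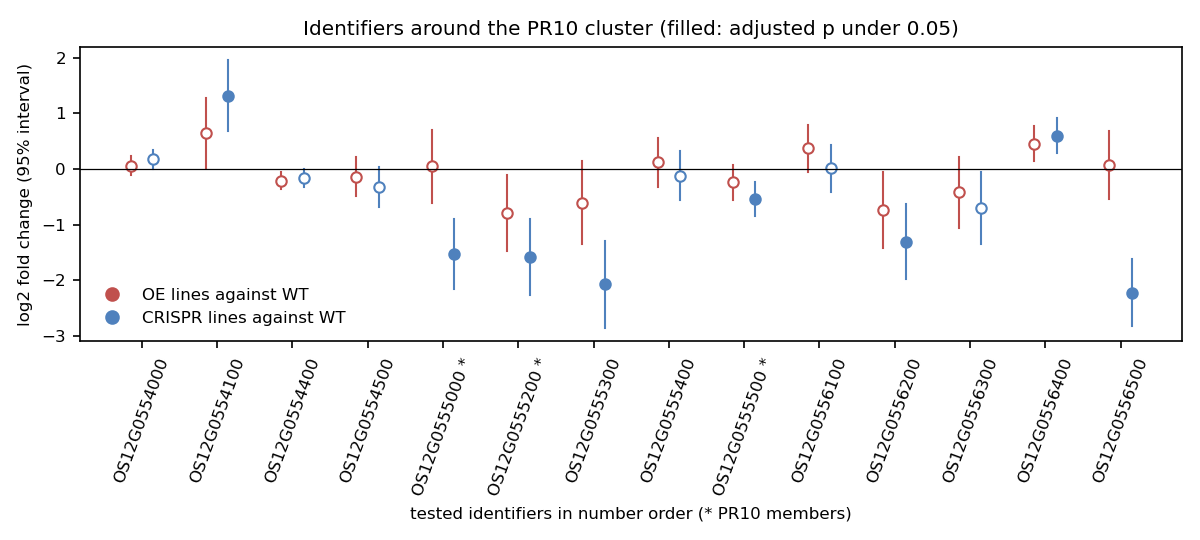
Log2 fold change with its 95% interval (y axis) of the 14 tested identifiers numbered around the PR10 cluster, in number order (x axis, members starred), for OE lines and for CRISPR lines against WT. Filled points have an adjusted p under 0.05, which holds for 8 identifiers in the CRISPR lines, 6 of them lower, and for none in the OE lines.

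Among genes of the wider pathway, the 11 listed salicylate regulators had 5 members that fell in the CRISPR lines against WT and 0 that rose, with a median log2 fold change of -0.78, beside 0.01 over all tested genes, of which 6.37% fell and 5.34% rose. The symbols of these lists were paired with identifiers from general knowledge and could not be checked here. The lists were chosen with earlier results of these data known, so their counts are not an independent test. NH1 (OS01G0194300), a regulator through which salicylic acid signals act on PR genes, was at 23.1 to 34.9 CPM in OE libraries, 13.4 to 22.2 CPM in CRISPR libraries and 22.6 to 32.3 CPM in WT libraries. Every CRISPR library of NH1 lay below every OE and WT library, as for PR10b (log2 fold change against WT -0.78, SE 0.12, edgeR adjusted p = 0.000636). All CRISPR libraries lay below all WT libraries in 4.61% of tested genes, and a link between NH1 and PR10b was not tested. The other 4 that fell were the loci listed as WRKY70 (OS05G0474800, 0.305-fold), WRKY28 (OS06G0649000, 0.354-fold), WRKY53 (OS05G0343400, 0.723-fold) and PAD4 (OS11G0195500, 0.731-fold). WRKY28 was found in few reads, at 0 to 1.26 CPM in CRISPR libraries and 1.08 to 1.95 CPM in WT libraries. The locus listed as WRKY45 (OS05G0322900) was not called. It averaged 15.8 CPM in C-13, 91.0 CPM in C-14 and 67.9 CPM in C-16, and WT libraries were at 35.1 to 183 CPM. The locus listed as EDS1 (OS09G0392100), also not called, averaged 33.1 CPM in CRISPR lines and 32.2 CPM in WT. Of the 11 estimates 10 were negative. NH1 was called under all 30 alternatives run. The other 4 calls each ended without WT replicate 1, where the log2 fold change was -1.55 for WRKY70 (edgeR adjusted p = 0.0934), -1.46 for WRKY28 (0.11), -0.27 for WRKY53 (0.187) and -0.25 for PAD4 (0.287). The calls of WRKY28, WRKY53 and PAD4 also ended without C-13 and those of WRKY70 and PAD4 without C-16, and those of WRKY70 and WRKY28 without WT replicate 3. Of the 30 alternatives, 6 ended the call for WRKY28, 6 that for PAD4 and 3 each those for WRKY70 and WRKY53, and without C-13 WRKY28 was at -0.95 (edgeR adjusted p = 0.152). In the OE lines against WT edgeR and DESeq2 called 0 of the 11, with a median of -0.09, beside 0.00 over all tested genes. An unadjusted p under 0.05 was found for 2 of the 11, beside 4489 of 21044 tested genes. Over all tested genes edgeR called 4.67% there. Between OE and CRISPR lines 5 were higher in OE lines and 0 lower, beside 9.71% higher and 7.65% lower over all genes. NH1, WRKY53, WRKY70 and PAD4 were among these 5 but WRKY28 was not, so they are not the same 5 that fell in the CRISPR lines.

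Of 8 other listed PR genes 7 were tested, and OS07G0129300 was the 1 that fell in the CRISPR lines against WT, with 0 that rose and a list median of 0.07. Over all tested genes 6.37% were called lower and 5.34% higher there, with a median of 0.01. OS07G0129300 and the locus listed as PR5 were the 2 called higher in OE than in CRISPR lines, beside 9.71% of all tested genes. PR5 (OS12G0628600), a thaumatin-like protein, was at 223 to 886 CPM in OE libraries, 72.1 to 232 CPM in CRISPR libraries and 86.1 to 197 CPM in WT libraries. All its OE libraries lay above all WT libraries, as in 1.78% of tested genes. It rose 2.86-fold in the OE lines (edgeR adjusted p = 0.0414), a call that ended under 12 of 30 alternatives, among them without any 1 WT library (edgeR adjusted p = 0.0554 to 0.25) and without line OE-3 (0.137). In the CRISPR lines it was at 1.05-fold of WT (edgeR adjusted p = 0.926). The jasmonate-responsive PR10 gene listed as JIOsPR10 (OS03G0300400), which lies on another chromosome than the PR10 cluster, had log2 fold changes of -1.50 in OE lines (edgeR adjusted p = 0.0807) and -0.22 in CRISPR lines (edgeR adjusted p = 0.818).

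Of 8 listed genes of phytoalexin synthesis, which makes antimicrobial diterpenes and flavonoids, 6 were tested and edgeR called 0 in OE or CRISPR lines against WT. At an unadjusted p under 0.05 there were 1 in OE lines and 4 in CRISPR lines, beside 4489 and 5764 of 21044 tested genes. DESeq2 called 0 in OE lines and 1 in CRISPR lines, which was higher. The median log2 fold change was -0.36 in OE lines and -0.59 in CRISPR lines, beside -0.002 and 0.01 over all tested genes. Of all tested genes edgeR called 4.67% in OE lines against WT. In CRISPR lines against WT it called 6.37% lower and 5.34% higher, and 9.71% were higher in OE than in CRISPR lines. Between OE and CRISPR lines the locus listed as CPS4 (OS04G0178300), a diterpene cyclase, was 2.03-fold higher in OE lines (edgeR adjusted p = 0.041). That call ended under 10 of 29 alternatives, among them without OE-2, OE-4 or any 1 of the CRISPR lines (edgeR adjusted p = 0.0623 to 0.129).

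Genes with the pattern most like each member were sought by Pearson's r of log2 CPM over the 21 libraries, among all tested genes. The libraries differed in depth and genotype, and r takes in differences between genotypes. For PR10b these were OS08G0448000 (r = 0.976), OS01G0693300 (r = 0.963) and OS06G0671600 (r = 0.958). OS08G0448000 averaged 10.2 CPM in OE-2, 8.99 in OE-3, 12.0 in OE-4, 2.03 in C-13, 2.79 in C-14, 2.08 in C-16 and 12.2 in WT. The nearest pattern to the cluster member was OS07G0522500 (r = 0.948), and to PBZ1 it was OS04G0480500 (r = 0.879). For PR1a and PR1b the highest values were 0.682 and 0.72, in counts too sparse for a likeness to be read. Among the members, r was 0.789 between PR10b and the cluster member, 0.76 between the cluster member and PBZ1 and 0.628 between PR10b and PBZ1.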

How the data were processed

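The authors deposited raw read counts per gene identifier for 21 libraries of 7 lines. Tools listed in the submitters' processing notes, without their roles, are STAR 2.5.3a, Trim Galore, FastQC and DESeq2, and the build is IRGSP-1.0. Neither the program that counted reads nor its handling of strand and of multi-mapping reads is given, and counts of near-identical PR genes are therefore uncertain. Counts were tested with edgeR 4.0.16 (R 4.3.3) by quasi-likelihood, after filterByExpr by line (minimum count 10) and TMM scaling, in 1 model of 7 lines with 14 residual degrees of freedom. OE lines and CRISPR lines were compared with each other on counts summed per line. SE is the absolute log2 fold change over the square root of F. The procedure was also run on simulated counts. For the genotype comparisons these held no differences between lines of a genotype. They therefore do not show how those comparisons behave where such lines differ.

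The members and the gene lists were chosen with earlier results of these data known. Named genes were the members, up to 4 per list with the smallest adjusted p, identifiers numbered near the members, and the 3 most alike genes per member. WRKY28 was named beyond that limit after its value was seen, to complete a count of 5. WRKY45 and EDS1 were also named with their values seen, as listed regulators that were not called. Likeness used log2 CPM with a prior count of 2. No libraries were merged, since each replicate pair differed beyond counting noise (6.01 to 31 times Poisson variance). Alternatives were DESeq2 1.42.0 size factors, the DESeq2 test, no filter, a replicate block, fewer libraries in the model, other units of replication, and each library or line left out.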

Additional observations from a re-analysis of the deposited data

Results flagged for a closer look

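The following results differed between OE and CRISPR lines by the direct test of 3 lines against 3 (edgeR, Benjamini-Hochberg over all tested genes, of which 17.4% were called either way). Among the members these were PR10b, with a log2 difference of 1.60 (edgeR adjusted p = 0.000868), and the PR10 cluster member, with 0.84 (edgeR adjusted p = 0.0283). Among neighbouring identifiers the log2 difference was 5.48 for OS07G0129300, 1.51 for OS12G0555300, 2.30 for OS12G0556500, 1.71 for OS07G0124100 and -0.43 for OS07G0124500. Among the listed defence genes named above it was 0.72 for NH1, 0.66 for WRKY53, 1.51 for WRKY70, 0.43 for PAD4, 1.51 for PR5 and 1.02 for CPS4. Of 29 alternatives, 6 ended the call for the PR10 cluster member, 2 that for OS07G0124500, 2 that for WRKY53, 7 that for PAD4 and 10 that for CPS4. In the locus listed as CPS2 (OS02G0571100) the 3 OE lines differed from each other, with a log2 spread of 1.41 between the highest and the lowest line (edgeR adjusted p = 0.00584).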

How the results depend on the processing

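Of 40 gene results in the 3 genotype comparisons, 19 kept their direction and their side of the threshold under every alternative run, among them PR10b and the PR10 cluster member in CRISPR lines against WT and PR10b in OE against CRISPR lines. Members called numbered 1 in OE-2, 2 in C-14, 3 in C-16 and 1 among the OE lines with no low-count filter, and 1, 1, 2 and 1 with the DESeq2 test. For OE against CRISPR lines 1 member was called without C-13, without C-14 or without C-16. Leaving out 1 library gave 0 to 3 called members in C-13, 0 to 1 in C-14, 0 to 2 in C-16, 0 to 1 in OE-3 and 1 to 2 for OE against CRISPR lines. Signs turned only in uncalled estimates. PR1b in OE against CRISPR lines became 0.085 with the replicate block, 0.061 with single libraries, 0.15 without OE-3, 0.022 without OE-4 and 0.72 without C-16, and ran from -0.34 to 0.90 over left-out libraries. PR1b in CRISPR lines became -0.28 without C-16 and ran from -0.51 to 1.30. PR1a in OE against CRISPR lines became -0.034 without OE-2, as did OS07G0129300 in OE lines against WT, and PR10b in OE lines became -0.027 without OE-4. Over left-out libraries PR10b ran from -0.12 to 0.27 in OE lines, -0.38 to 0.18 in OE-2, -0.56 to 0.20 in OE-3 and -0.048 to 0.44 in OE-4, and PBZ1 from -0.30 to 0.045 in OE-3 and -0.067 to 0.17 in OE-4. The cause was not tested.

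Counts over all genes ranged from 6 (summed per line) to 2220 (without OE-4) for OE lines, with 983 in the main analysis, from 668 (without WT replicate 1) to 3040 for CRISPR lines, with 2464, and from 1545 (without C-16) to 8910 (single libraries) for OE against CRISPR lines, with 3916. Libraries with the same replicate number deviated together above r = 0.1 in 12 of 63 pairs of libraries from different lines, so the numbers were not taken as pairing. With the replicate block PBZ1 was called in OE against CRISPR lines (log2 difference 0.30, edgeR adjusted p = 0.0377), where single libraries are the replicates.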
